A study of Homo sapiens with 9 samples.

Results

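The genes of ER-associated degradation, the route by which misfolded proteins leave the endoplasmic reticulum to be destroyed, were followed across 9 libraries of HaCaT, a spontaneously immortalised human keratinocyte line. The set is a list of 37 gene symbols covering ubiquitin ligases, membrane factors, glycan-reading proteins and the extraction machinery. Each of the 37 was found among the 20263 identifiers of the count table, and 36 had enough counts to be tested. The control group (titled Blank, treatment label WT), the melanosome group (cells given melanosomes, the pigment organelles that melanocytes hand to keratinocytes) and the glabridin group (cells given melanosomes and glabridin, an isoflavan of licorice root) held 3 libraries each. The cell line is the same in every group, and every glabridin library also carries the melanosome treatment. Neither dose, exposure time nor melanosome source is given in the sources used here, and the labels do not say that replicates came from separate cultures. The p-values therefore reflect library-to-library spread, part or all of which may be technical.

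In this pathway, a misfolded glycoprotein has mannose residues trimmed from its glycan, is recognised by lectins and is handed to a ubiquitin ligase embedded in the membrane of the endoplasmic reticulum. The ligase, with its conjugating enzyme, attaches ubiquitin as the protein emerges on the cytosolic side, and the ATPase VCP with its cofactors pulls it out for the proteasome. Many of these genes are known targets of the unfolded protein response, the program that senses misfolded proteins in that compartment and acts through the transcription factors XBP1, ATF6 and ATF4.

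Library totals ran from 39653425 to 46690787 counts. Levels are CPM (counts relative to library size, with sizes scaled by the trimmed mean of M values), and a gene is said to have risen or fallen when edgeR's quasi-likelihood test gave a Benjamini-Hochberg adjusted p under 0.05 over the 13912 genes tested. The summed level of 16 keratinocyte markers was high in every library, from 20441 to 20698 CPM in control, 16043 to 17277 in melanosome and 12116 to 15425 in glabridin libraries. In the deposited TPM values the same sum was 16860 ± 153 in control, 16914 ± 287 in melanosome and 12510 ± 1455 in glabridin libraries (SD, n = 3), so the step from control to melanosome differed between CPM and TPM. The summed level of 20 melanocyte markers was 191 to 203 CPM in control, with 9 to 11 of them at 0 counts, and 3517 to 3642 CPM in melanosome libraries. In glabridin libraries 1, 2 and 3 this sum was 2580, 3943 and 2182 CPM. The summed level of 10 fibroblast markers was 45.4 to 47.9 CPM in control libraries, 26.2 to 27.4 in melanosome libraries and 21.4 to 26.1 in glabridin libraries. Between control and melanosome DCN fell from 32.0 to 5.77 CPM, while LUM rose 8.86-fold and TWIST1 14.7-fold. The TPM sum went the other way, from 12.2 ± 0.171 in control to 18.4 ± 0.881 in melanosome and 17.7 ± 2.18 in glabridin libraries. In bulk RNA, fewer cells of a type and less RNA per cell cannot be told apart.

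The sharpest difference in the set was that of HERPUD1 in the comparison of glabridin with melanosome libraries. HERPUD1 encodes a ubiquitin-like membrane protein that organises the ligase complex around SYVN1. Promoters of the RefSeq table (GRCh38.p14, 250 bases before to 50 bases after a start) were matched for 29 of the 37 genes, and those of HERPUD1, SYVN1 and SELENOS are shown because these genes had the 3 largest rises with glabridin. Each is the part of the window that lies before the annotated gene, on the gene's own strand. Capitals mark matches to any of 5 motifs of the unfolded protein response.
HERPUD1, chr16:56931892-56932047, plus strand: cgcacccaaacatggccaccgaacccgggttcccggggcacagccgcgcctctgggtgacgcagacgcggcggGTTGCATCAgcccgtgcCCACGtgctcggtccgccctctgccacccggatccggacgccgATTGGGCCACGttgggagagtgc
SYVN1, chr11:65134534-65134769, minus strand: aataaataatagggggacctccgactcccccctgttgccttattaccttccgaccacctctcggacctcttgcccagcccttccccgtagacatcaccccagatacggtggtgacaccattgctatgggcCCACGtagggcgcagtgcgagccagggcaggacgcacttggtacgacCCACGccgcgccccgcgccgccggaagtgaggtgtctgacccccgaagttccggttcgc
SELENOS, chr15:101277501-101277735, minus strand: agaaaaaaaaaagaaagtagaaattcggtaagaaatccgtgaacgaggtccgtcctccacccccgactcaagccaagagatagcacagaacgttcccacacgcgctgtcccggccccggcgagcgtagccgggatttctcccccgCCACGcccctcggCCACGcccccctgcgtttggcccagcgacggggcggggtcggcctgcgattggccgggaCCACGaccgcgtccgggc

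The motifs were searched on both strands of all windows. They were the ER stress response element (ERSE, CCAAT and CCACG with 9 bases between), its second form (ERSE-II, ATTGG and CCACG with 1 base between), the element's shorter part CCACG, the core TGACGTGG of the unfolded protein response element, and the ATF4-type TGATGNAAN. CCACG also lies within both forms of ERSE and, read on the other strand, within TGACGTGG. ERSE-II was found in the HERPUD1 window, 117 to 107 bases before the RefSeq start, and in none of the other 28. It was in 0.05% of 27305 promoters and 0.1% of the tested genes with a window. The ATF4-type motif was found in HERPUD1 alone among the 29, on the opposite strand 177 to 169 bases before the start. That share, 3.4%, was near the 3.67% of all promoters, and 1.73% of the tested genes with a window held the motif. The complete ERSE was in none of the 29 windows, while 6 of 18 matched ER chaperone promoters and that of XBP1 held it, against 0.08% of promoters. TGACGTGG was found in UBE2J1 and VCP, against 0.79% of promoters. CCACG was found in 21 of the 29, against 37.9% of promoters and 48.9% of the 11154 tested genes with a window. A transcript start annotated by GENCODE was found in 28 of the 29 windows. The window without one, that of NPLOC4, was among the 21. Promoters on which the motifs were first defined were not set apart from the others, so the shares are a description and not a test. These matches describe letters in the windows and do not show that a factor binds there.

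The comparison of glabridin with melanosome libraries asks what the compound changed in melanosome-laden cells. Of the 36 genes, 23 rose, 1 fell (UBE2G2) and 12 did not pass the test. Over the tested genes 23.7% rose and 20.2% fell. The median log2 fold change of the 36 was 0.34, beside 0.01 over the genes tested, with a range from -0.28 to 3.12, and 5 genes rose by more than 2-fold. With library totals in place of scaling factors the counts were 15 higher and 5 lower, and the median over the tested genes moved to -0.17. With limma on log2(TPM + 1) they were 14 higher and 5 lower. Genes called in either direction were 6111 in the main test, 6445 with library totals and 6471 with limma. Their shares by direction under these settings are not given here, so these counts lack that background. The rises of HERPUD1, SYVN1, SEL1L, DERL1, DERL2, RNF139, EDEM1, ERLEC1, UBE2J1, AUP1, SELENOS, SELENOK, UBXN6 and TMUB1 were called under each of the 17 alternatives run. Of the 19 tested melanocyte markers 2 rose and 5 fell in this comparison, and of the 16 keratinocyte markers 6 rose and 4 fell. The part of other cell types in the members' values was not tested.

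**Figure D1:**
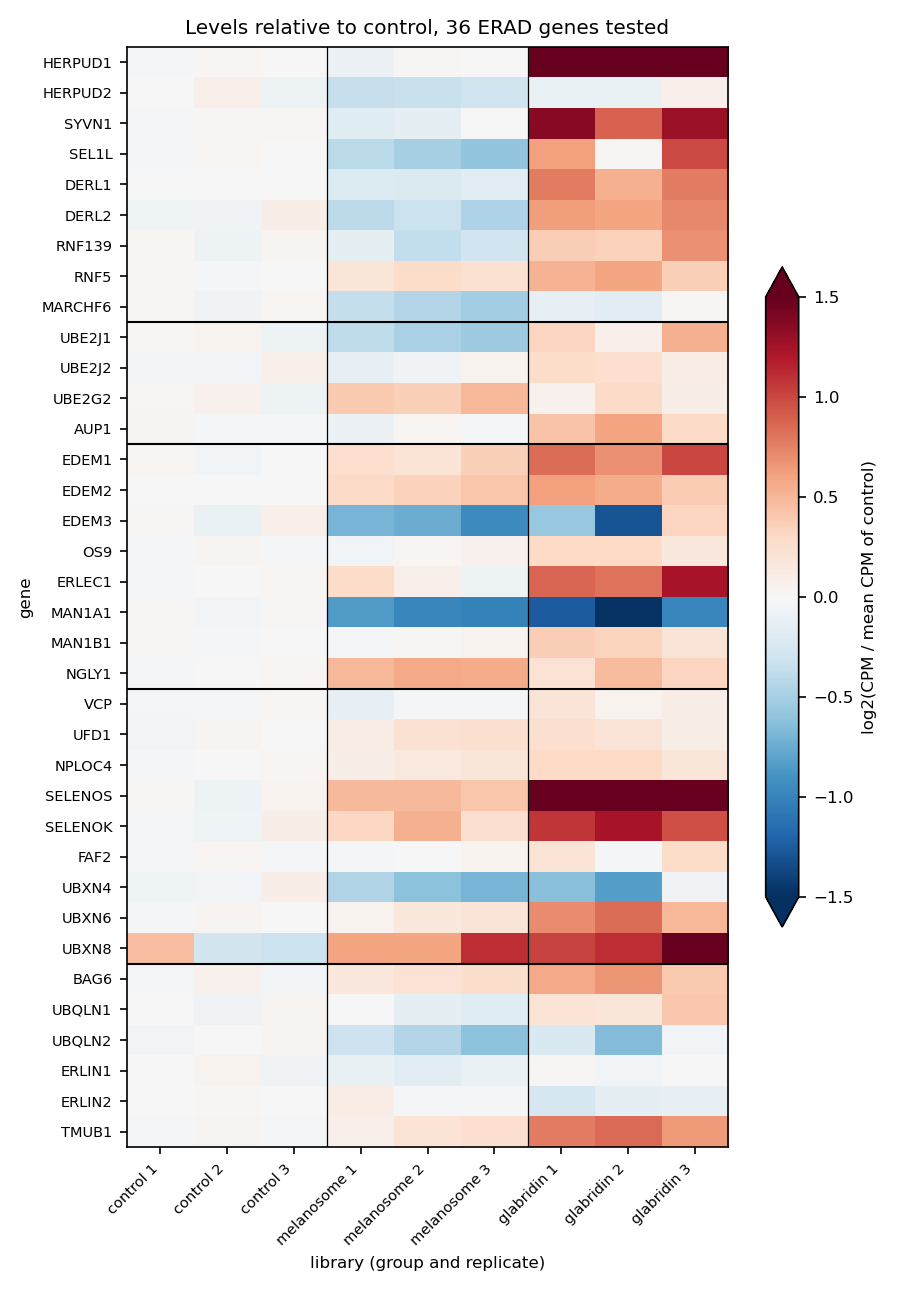
Level of each of the 36 tested genes (vertical axis, grouped by role) in each library (horizontal axis), as log2 of its CPM over the mean of the control libraries, with colours held at the ends of the scale beyond 1.5 either way. HERPUD1 and SELENOS are dark red in the 3 glabridin libraries, and MAN1A1 is blue in the melanosome and glabridin libraries.

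Of the ligase complexes and membrane core, 9 of 9 tested genes rose, by 1.20-fold to 8.70-fold. HERPUD1 was measured at 67.9, 70.0 and 68.4 CPM in the control libraries, at 64.8, 69.4 and 69.2 CPM in the melanosome libraries and at 653, 497 and 619 CPM in the glabridin libraries. The glabridin libraries stood far above the other 6, which overlapped each other. The rise over the melanosome group was 8.70-fold (log2 3.12 ± 0.10, SE, n = 3 per group, edgeR adjusted p = 1.24e-08). SYVN1, the membrane ubiquitin ligase also called HRD1, measured 90.8, 93.4 and 93.6 CPM in control libraries, 81.4, 84.3 and 93.1 in melanosome libraries and 239, 171 and 227 in glabridin libraries. Its rise was 2.46-fold (log2 1.30 ± 0.11, adjusted p = 8.42e-06), with glabridin library 2 the lowest of its group. GENCODE places 398 bases of SYVN1 exons, 7.20% of its exonic length, on the same strand as FAU exons, so the share of its reads that belong to FAU is uncertain.

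SEL1L, the partner that stabilises SYVN1, measured 64.7, 67.6 and 66.0 CPM in control libraries, 49.8, 46.9 and 43.9 in melanosome libraries and 101, 66.9 and 132 in glabridin libraries. The 3 glabridin values lay above every melanosome value, but library 2 was level with the controls. The rise over melanosome was 2.13-fold (log2 1.09 ± 0.19, adjusted p = 0.000874). DERL2, a derlin that forms part of the membrane channel, measured 33.2, 33.5 and 37.2 CPM in control libraries, 26.4, 27.7 and 25.2 in melanosome libraries and 53.5, 52.0 and 57.1 in glabridin libraries. The 3 groups did not overlap, and the rise was 2.05-fold (log2 1.04 ± 0.08, adjusted p = 3.16e-06). Its paralog DERL1 measured 112 CPM in each of the control libraries, 97.0, 96.5 and 99.9 CPM in melanosome and 192, 162 and 190.1 CPM in glabridin libraries. That rise was 1.85-fold (log2 0.89 ± 0.07, adjusted p = 3.93e-06), again without overlap.

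**Figure D2:**
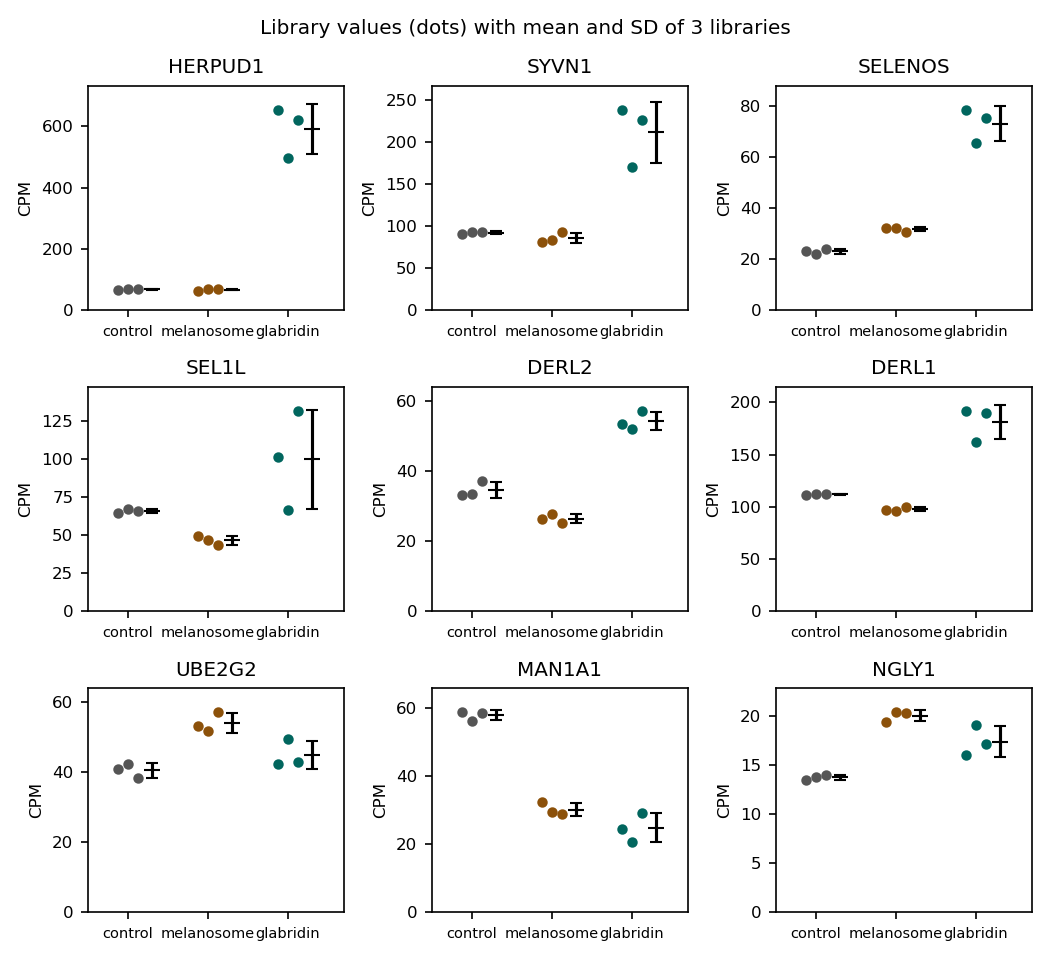
Library values in CPM (vertical axes, each from 0) of 9 genes whose values are given library by library, by group (horizontal axes), with the mean and SD of 3 libraries beside the dots. HERPUD1, SYVN1 and SELENOS separate the glabridin libraries from the other groups, whereas the SEL1L values of the glabridin libraries span 66.9 to 132 CPM.

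DERL3, the third derlin, could not be tested. It had 0, 2 and 0 counts in control, 4, 2 and 2 counts in melanosome and 4, 0 and 8 counts in glabridin libraries, and 77.0% of its exonic bases overlap SMARCB1 on the opposite strand. The remaining ligase genes had smaller changes. RNF139, a membrane ligase also called TRC8, rose 1.67-fold over melanosome (log2 0.74 ± 0.10, adjusted p = 0.000208). MARCHF6, the homolog of the yeast ligase Doa10, rose from 112 ± 6.20 to 143 ± 9.39 CPM (SD, n = 3). RNF5, a membrane-anchored ligase that also acts on cytosolic substrates, rose from 66.7 ± 2.06 to 79.9 ± 6.65 CPM. HERPUD2, the paralog of HERPUD1, rose from 37.3 ± 0.538 to 45.5 ± 3.33 CPM, a factor of 1.22 beside the factor of 8.70 for HERPUD1. The rises of MARCHF6, RNF5 and HERPUD2 did not pass with library totals or with limma on TPM. Those of RNF5 and HERPUD2 also did not pass with upper-quartile factors or without glabridin library 1, nor that of RNF5 with only the 2 groups compared.

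Of the 4 genes for ubiquitin conjugation, 3 rose and 1 fell. UBE2J1, the conjugating enzyme anchored in the membrane, rose from 41.6 ± 2.32 to 72.1 ± 11.6 CPM (log2 0.79 ± 0.11, adjusted p = 0.000188). UBE2J2, its paralog, rose from 29.3 ± 1.74 to 34.9 ± 2.07 CPM (adjusted p = 0.024), a call that was lost in 10 of the 17 alternatives, leaving out melanosome library 1 or 2 or glabridin library 1 among them. AUP1, which recruits UBE2G2 to the membrane, rose from 114 ± 4.76 to 157 ± 16.6 CPM. UBE2G2 measured 41.0, 42.2 and 38.3 CPM in control libraries, 53.2, 51.8 and 57.2 in melanosome libraries and 42.3, 49.5 and 43.1 in glabridin libraries. The glabridin values lay below every melanosome value. They lay above every control value by a very small margin (42.27 against 42.23 CPM at the closest), and the difference from control did not pass (edgeR adjusted p = 0.123). The level fell by 0.27 on the log2 scale against melanosome (SE 0.08, adjusted p = 0.0211), and this call was lost without melanosome library 3 (largest adjusted p over the alternatives 0.0869). The count of lower calls in the set was 0 without melanosome library 3, 2 without glabridin library 1 and 3 without glabridin library 2 or 3, with NGLY1, MAN1A1 or ERLIN2 among the added calls.

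Among the 8 genes of glycan trimming and the lectins, 4 rose. ERLEC1, a lectin of the endoplasmic reticulum, rose from 40.4 ± 5.03 to 74.8 ± 12.2 CPM (log2 0.89 ± 0.12, adjusted p = 0.000187). EDEM1, which promotes mannose trimming, rose from 32.9 ± 1.93 to 49.1 ± 5.30 CPM (log2 0.58 ± 0.09, adjusted p = 0.000463). OS9, the lectin paired with SEL1L, rose from 343 ± 12.8 to 404 ± 23.7 CPM, and MAN1B1, a mannosidase, from 230.3 ± 6.68 to 281 ± 17.6 CPM. The rises of OS9 and MAN1B1 did not pass with library totals, with limma or without glabridin library 1, nor that of OS9 with upper-quartile factors. EDEM2 measured 82.7 ± 3.64 against 93.1 ± 7.68 CPM (adjusted p = 0.0719), and MAN1A1, a Golgi mannosidase, 30.2 ± 1.86 against 24.8 ± 4.27 CPM (adjusted p = 0.065). NGLY1, the cytosolic enzyme that strips glycans from extracted proteins, measured 20.1 ± 0.553 against 17.4 ± 1.54 CPM (adjusted p = 0.0845). EDEM3 had the widest spread of the 36 tested genes, with 16.5, 9.95 and 30.4 CPM in the glabridin libraries, a coefficient of variation of 55.2%, and did not pass (adjusted p = 0.273).

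In the extraction machinery, 4 of 9 genes rose. SELENOS, a selenoprotein that ties VCP to the derlins, measured 23.3, 22.0 and 24.1 CPM in control libraries, 32.3, 32.4 and 30.8 in melanosome libraries and 78.4, 65.4 and 75.2 in glabridin libraries. The groups formed 3 separate steps, and the rise over melanosome was 2.29-fold (log2 1.20 ± 0.08, adjusted p = 1.79e-06). SELENOK, a second selenoprotein of the membrane, rose from 18.8 ± 2.06 to 31.1 ± 3.06 CPM, and UBXN6, a VCP cofactor, from 219.6 ± 10.3 to 321 ± 37.6 CPM. VCP measured 285, 303 and 303 CPM in melanosome and 353, 322 and 331 CPM in glabridin libraries, and rose by a log2 of 0.18 ± 0.05 (adjusted p = 0.0232), but its sign turned to -0.00134 with library totals and -0.0093 with limma on TPM. The call was lost in 10 of 17 alternatives, again including those without melanosome library 1 or 2 or glabridin library 1. Over all 17 the adjusted p ran from 0.00545 to 0.985. UFD1 (47.2 ± 2.26 against 46.5 ± 2.54 CPM) and NPLOC4 (186 ± 5.83 against 202 ± 9.71 CPM), which pair up as the adaptor of VCP, did not pass, nor did FAF2, UBXN4 or UBXN8.

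Of the 6 genes of shuttling and of the erlin scaffold, 3 rose. TMUB1, a ubiquitin-like membrane protein, rose from 78.2 ± 5.01 to 116 ± 8.76 CPM (log2 0.58 ± 0.07, adjusted p = 0.000123). BAG6, a chaperone that keeps extracted proteins soluble, rose from 388 ± 15.1 to 488 ± 44.3 CPM, and the shuttle UBQLN1 from 213 ± 14.7 to 275 ± 23.2 CPM. The rise of UBQLN1 did not pass with library totals or limma, and that of BAG6 did not pass with limma or without glabridin library 1. UBQLN2, the paralog of UBQLN1, measured 41.8 ± 4.48 against 46.9 ± 9.67 CPM and did not pass. ERLIN1 (71.0 ± 1.64 against 76.8 ± 1.75 CPM) and ERLIN2 (32.7 ± 1.92 against 28.6 ± 1.30 CPM), which form a ring-like scaffold in the membrane, did not pass the main test in any of the 3 comparisons. For ERLIN2 the glabridin and melanosome libraries did not overlap (edgeR adjusted p = 0.0567), and 8 of the 17 alternatives called it lower with glabridin.

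**Figure D3:**
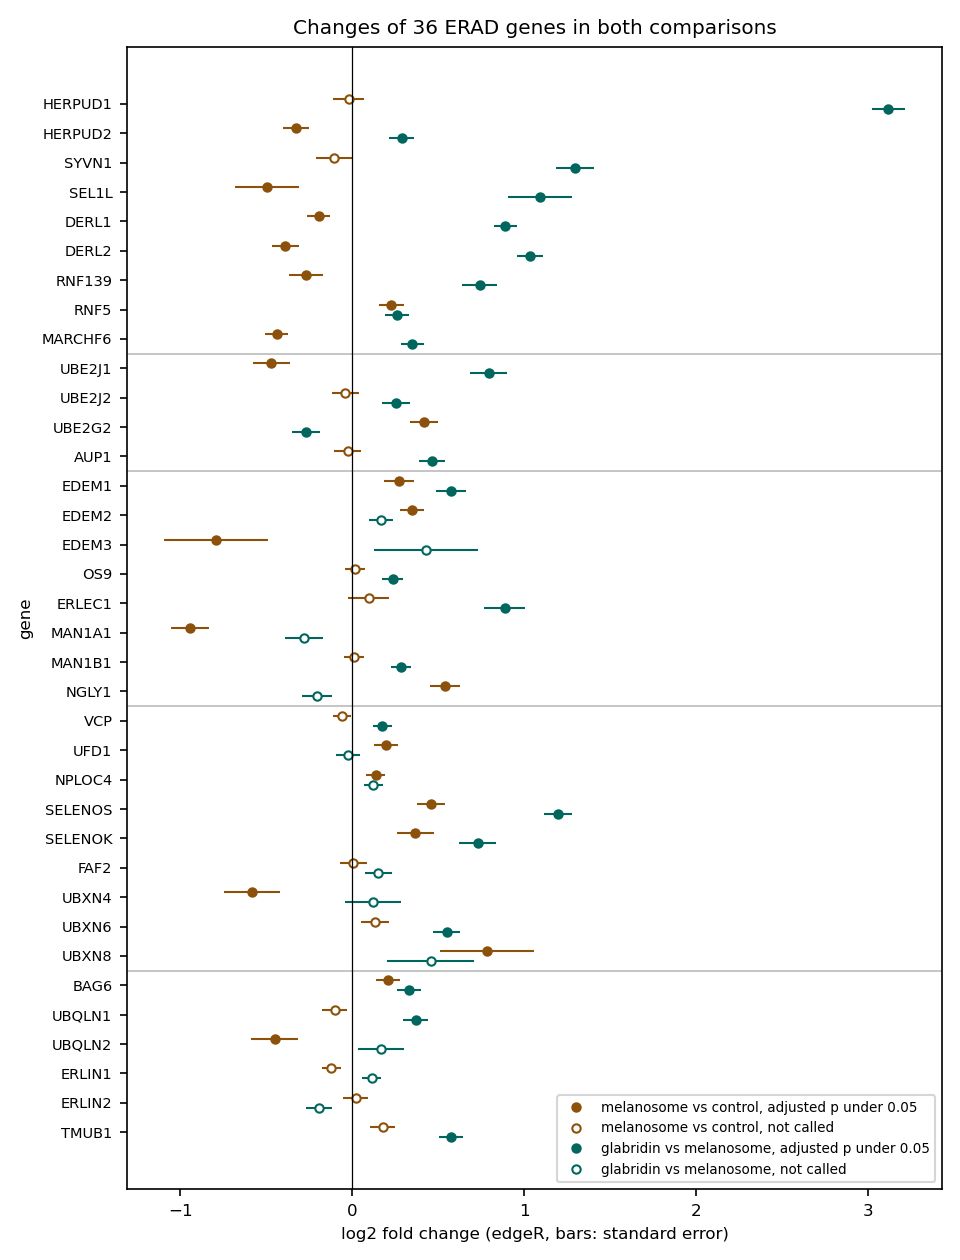
Log2 fold changes (horizontal axis) of the 36 tested genes (vertical axis, grouped by role), with standard errors, for melanosome against control (brown) and glabridin against melanosome (green), filled where the adjusted p was under 0.05. HERPUD1 lies at 3.12 in the glabridin comparison, and UBE2G2 is the one filled green point below 0.

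Summed over the 37 genes, the total level came to 3443 ± 16.3 CPM in control libraries, 3378 ± 42.5 in melanosome libraries and 4939 ± 156 in glabridin libraries (SD, n = 3). The ratio of glabridin to melanosome in CPM was 1.46 (exact permutation test, 2-sided, p = 0.1, the smallest that the 20 arrangements of 3 against 3 allow). The sums of the deposited TPM values were 2565 ± 30.8, 2948 ± 32.1 and 3897 ± 237, which put melanosome above control, the reverse of their order in CPM. HERPUD1 made up 33.4% of the CPM difference between glabridin and melanosome. Without it the CPM sums were 3374 ± 15.4, 3310 ± 40.2 and 4349 ± 76.5 CPM. Compared per length by the deposited TPM values, HERPUD1 stood 13th of the 37 in control (58.2 ± 1.34 TPM), 14th in melanosome (65.0 ± 0.723 TPM) and first by the mean of the glabridin libraries (499 ± 88.6 TPM). In glabridin library 2 it stood below UBXN6, at 397 against 427 TPM. By that mean it was followed by UBXN6 at 405 ± 26.3, OS9 at 327 ± 9.63, BAG6 at 281 ± 10.9 and AUP1 at 231 ± 11.9 TPM. In control the order began with OS9 at 276 ± 8.58, UBXN6 at 254 ± 7.45 and BAG6 at 194 ± 8.69 TPM, while UBXN8 (0.953 ± 0.309 TPM) and DERL3 were last.

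The glabridin libraries differed from each other more than those of the other groups did. The median coefficient of variation over the 36 genes was 2.60% in control, 4.97% in melanosome and 9.08% in glabridin libraries. Of the 23 genes that rose over melanosome, glabridin library 2 had the lowest value of its group in 14, library 3 in 9 and library 1 in 0. The highest value was in library 2 for 7 of these genes, in library 3 for 9 and in library 1 for 7. Library 2 also had the highest summed melanocyte markers of its group, at 3943 CPM, and the highest share of mitochondrial counts, at 1.87% beside 1.53% and 1.59%. The part of these in the members' values was not tested. Without library 2 the same 23 calls were kept, EDEM3, FAF2 and UBQLN2 were also called higher, and NGLY1 and ERLIN2 were called lower. Without library 1, the calls of HERPUD2, OS9, RNF5, UBE2J2, VCP, BAG6 and MAN1B1 were lost and the median log2 fold change was 0.25.

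Genes that act beside these were counted in the same way, in lists of the wider pathway. Of 52 further genes of ER-associated degradation, 26 rose with glabridin over melanosome and 2 fell, with a median log2 fold change of 0.29. For this and the next 2 lists, the shares over all genes tested were 23.7% higher and 20.2% lower. The largest rises were those of INSIG1, which ties sterol synthesis to degradation of its rate-limiting enzyme (205 ± 5.36 to 1344 ± 112 CPM, log2 2.71 ± 0.07), TRAM1, a translocon protein (0.96 ± 0.20), and YOD1, a deubiquitinase that works with VCP (0.93 ± 0.26). The deubiquitinase USP13 fell by 0.63 and the ligase RNF170 fell by 0.51 on the log2 scale. Of 11 tested sensors and factors of the unfolded protein response, 10 rose and 0 fell, with a median of 1.16. DDIT3, which encodes the stress-induced factor CHOP, rose from 21.5 ± 0.443 to 97.1 ± 5.79 CPM, ATF4 from 331 ± 10.3 to 1341 ± 53.9 CPM and XBP1 from 92.9 ± 1.09 to 328 ± 62.6 CPM. Of 19 ER chaperones and folding enzymes, 17 rose and 1, ERO1A, fell, with a median of 1.26. HSPA5, the main chaperone of the compartment, rose from 499 ± 10.1 to 5795 ± 851 CPM (log2 3.54 ± 0.10), DNAJB9 by a log2 of 2.45 ± 0.20 and HYOU1 by 2.11 ± 0.11.

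**Figure D4:**
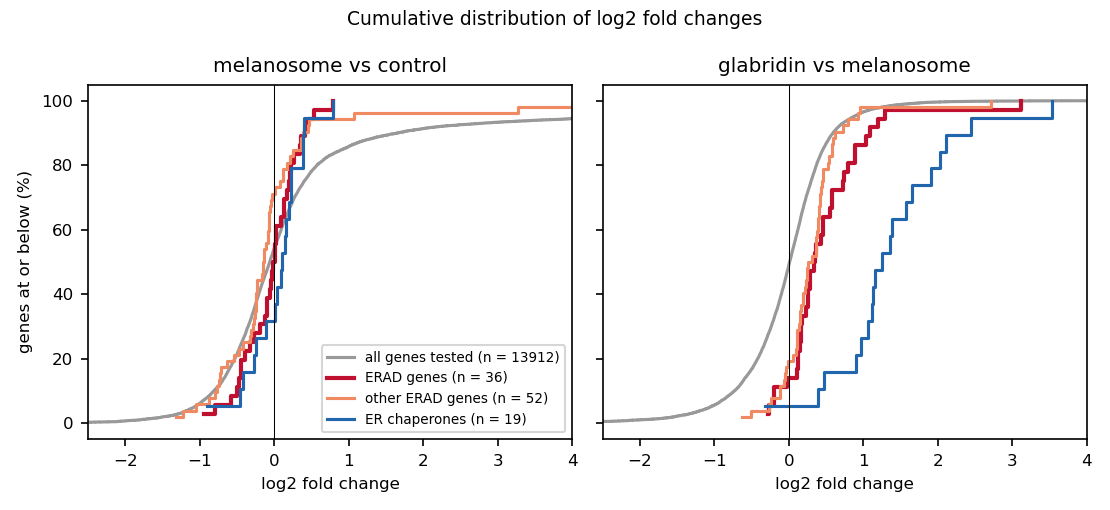
Share of genes at or below each log2 fold change (horizontal axis) for the 36 tested genes, the 52 further genes of the pathway, the 19 ER chaperones and the genes tested, in melanosome against control (left) and glabridin against melanosome (right), with fold changes beyond the axis not drawn. On the right the 36 genes have a median of 0.34 and the chaperones one of 1.26, beside 0.01 for the genes tested.

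The comparison of melanosome with control libraries asks how carrying melanosomes changed the cells. Of the 36 genes, 11 rose, 11 fell and 14 did not pass, and over the tested genes 29.5% rose and 33% fell. Both shares of the set, 30.6%, were near those of the genes tested. None of the changes reached 2-fold, and the median log2 fold change was -0.006, beside -0.06 over the genes tested. The split depended on scaling. It was 15 higher and 3 lower for library totals, which moved the median of the tested genes to 0.11. For limma on TPM it was 16 higher and 2 lower. Genes called in either direction were 8691 in the main test, 8243 with library totals and 8006 with limma. Their shares by direction under these settings are not given here. With only the 2 groups compared the split was 15 higher and 11 lower, with 10162 genes called in either direction. The split also depended on single libraries. The count of rises was 6 without control library 2, 5 without control library 3 and 6 without melanosome library 2 or 3. The count of falls was 7 without control library 1 or 3, melanosome library 2 or glabridin library 1, and 6 without melanosome library 3. Calls made under each alternative were the rises of EDEM2, NGLY1, SELENOS and UBE2G2 and the falls of MAN1A1 and MARCHF6.

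By role, the ligase and membrane core had 6 falls (SEL1L, DERL1, DERL2, HERPUD2, RNF139 and MARCHF6) and 1 rise (RNF5) among 9 tested genes. The extraction machinery had 5 rises (SELENOS, SELENOK, UFD1, NPLOC4 and UBXN8) and 1 fall (UBXN4) among 9. Over all genes tested 29.5% rose and 33% fell. Of these calls by role, only those of MARCHF6 and SELENOS were made under each alternative. The falls of HERPUD2 and UBXN4 were lost with library totals and with limma on TPM, and that of DERL2 with limma. The falls of SEL1L, DERL1 and EDEM3 were each lost on leaving out any single control or melanosome library or glabridin library 1. With only the 2 groups compared they were kept, as was every other call of the main test. The main fit shares 1 estimate of the spread over the 9 libraries, the more variable glabridin libraries included. The fall of RNF139 was lost without control library 1 or 3, melanosome library 2 or 3 or glabridin library 1. The rises of UFD1 and NPLOC4 were lost without any single control library or melanosome library 2 or 3. Among the further lists, 8 of the 52 genes of the wider pathway rose and 20 fell, 2 of 11 sensors and factors rose and 2 fell, and 8 of 19 chaperones rose and 3 fell. MAN1A1 had the largest fall, with 58.8, 56.3 and 58.7 CPM in control libraries, 32.3, 29.5 and 28.8 in melanosome libraries and 24.4, 20.8 and 29.3 in glabridin libraries. It fell by 0.94 ± 0.11 on the log2 scale (adjusted p = 4e-05), and both melanosome-laden groups lay below every control value. UBXN4, a membrane cofactor of VCP, measured 97.1, 99.0 and 109 CPM in control libraries, 74.6, 66.4 and 62.5 in melanosome libraries and 65.7, 57.5 and 98.1 in glabridin libraries. It fell by 0.58 ± 0.16 (adjusted p = 0.0101), and only glabridin library 3 among the melanosome-laden libraries came within the control range. EDEM3, which trims mannose, measured 24.7, 22.8 and 25.8 CPM in control and 15.1, 14.6 and 12.6 CPM in melanosome libraries, a fall of 0.79 ± 0.30 (adjusted p = 0.04) that was lost in 10 of 17 alternatives.

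Among the rises, NGLY1 measured 13.6, 13.8 and 14.0 CPM in control libraries, 19.4, 20.5 and 20.3 in melanosome libraries and 16.0, 19.1 and 17.2 in glabridin libraries. Control and melanosome values did not overlap, and the rise was 1.45-fold (log2 0.54 ± 0.09, adjusted p = 0.000382). SELENOS rose 1.38-fold (log2 0.46 ± 0.08, adjusted p = 0.000698) from the values given above. UBXN8, a membrane protein that tethers VCP, had low counts, with 54, 33 and 29 counts in control, 70, 58 and 97 counts in melanosome and 81, 77 and 121 counts in glabridin libraries. Its rise over control was a log2 of 0.79 ± 0.27 (adjusted p = 0.0272) and was lost without control library 2 or 3 or melanosome library 3. Of the 19 tested melanocyte markers, 19 rose in this comparison, and of the 16 keratinocyte markers 10 fell and 4 rose. The part of RNA from pigment cells in the members' changes was not tested.

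Of the 36 genes, 25 were higher in glabridin than in control libraries, 2 were lower (MAN1A1 and UBXN4) and 9 did not pass, while 37.6% of the tested genes were higher and 32.7% lower. This comparison shares its libraries with the other comparisons, so the 3 sets of calls are not independent. SELENOS, EDEM1, RNF5, SELENOK and BAG6 were called higher at both steps and rose 3.16-fold, 1.80-fold, 1.40-fold, 2.14-fold and 1.46-fold over control. The first of these steps, melanosome over control, was called under each alternative for SELENOS. It was lost for EDEM1 without control library 2 or 3 or melanosome library 3, for RNF5 without control library 2 or 3 or melanosome library 2, for BAG6 without control library 1 or 3 or melanosome library 2 or 3, and for SELENOK without melanosome library 2. SEL1L, DERL1, DERL2, RNF139 and UBE2J1 were lower in melanosome than in control libraries and higher in glabridin than in control libraries, by 1.51-fold, 1.62-fold, 1.57-fold, 1.39-fold and 1.25-fold. HERPUD2 and MARCHF6 were lower in melanosome libraries and did not pass between glabridin and control (46.8 ± 2.56 against 45.5 ± 3.33 CPM for HERPUD2, 152 ± 4.50 against 143 ± 9.39 CPM for MARCHF6). EDEM2, UFD1, NPLOC4, UBXN8 and NGLY1 were higher than control in both melanosome-laden groups and did not pass between them. FAF2, a membrane recruiter of VCP, did not pass in any of the 3 comparisons (73.8 ± 1.55, 74.2 ± 2.25 and 82.5 ± 8.79 CPM). The rise of UFD1 over control (adjusted p = 0.0443) was lost without any single library other than melanosome library 1 or glabridin library 3, that of UBE2J2 without control library 1 or 2 or glabridin library 1, and that of UBE2J1 without control library 3. The fall of UBXN4 was lost without control library 2 or 3 or glabridin library 1 or 2. The count of lower calls was 1 without control library 2 or 3 or glabridin library 1, and 5 without glabridin library 3. Of the further lists, 21 of 52 genes of the wider pathway were higher than control and 10 lower, 9 of 11 sensors and factors were higher and 1 lower, and 17 of 19 chaperones were higher and 0 lower.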

How the data were processed

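Strand-specific libraries from poly(A) RNA were sequenced as read pairs, per the labels' protocols. The authors deposited raw counts per gene beside TPM values and FPKM values for each of the 9 libraries. The submitters' processing notes name hg38. Aligner, counter and use of strand: not given in the sources used here. Among counts of 1 to 49, 69.9% to 72.2% were even. Of 20263 identifiers, 20148 matched a symbol. FPKM was not used. TPM served to compare levels between genes and for limma 3.58.1 on log2(TPM + 1).

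The main test of the counts was edgeR 4.0.16 under R 4.3.3 (TMM factors, filterByExpr, quasi-likelihood), with the 9 libraries in 1 fit and no replicate block, after the script was tested on simulated data. P-values were adjusted over the 13912 genes tested by the Benjamini-Hochberg method. Replicates differed by more than counting noise, with a chi-square per gene of at least 3.19. Alternatives were other scaling factors, no filter, DESeq2 1.42.0, only the 2 groups compared, a replicate block, limma on TPM and leaving out each library. Coordinates are from GENCODE 29 (GRCh38). Exons that overlap on opposite strands, in OS9, AUP1, UBXN6 and EDEM1 among others, and pseudogenes of ERLEC1, RNF5, SELENOK, FAF2 and UBQLN1 leave those counts uncertain. The members and lists were chosen with earlier results of these data known. Library values are given for members called with libraries that do not overlap, namely the 6 largest rises and up to 4 falls with glabridin, and the 3 largest rises and falls with melanosomes. For the other lists the 3 largest rises are named, with up to 3 falls for the further genes of the pathway. ERO1A, VCP and DERL3 were added after their values were seen. Protein sequences were not used here.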

Additional observations from a re-analysis of the deposited data

How the results depend on the processing

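Of the called members, 14 of 23 rises with glabridin over melanosome, 4 of 11 rises and 2 of 11 falls with melanosomes over control, and 20 of 25 rises and 1 of 2 falls with glabridin over control were called under all 17 alternatives. Over these alternatives the genes called in either direction ran from 4838 to 7332, 7499 to 10162 and 9039 to 10511 in the same order. Their shares by direction are not given here. For melanosome over control, the count of falls (11) was 7 with upper-quartile factors, 3 with library totals and 2 with limma on TPM. Leaving out 1 library gave 5 to 13 rises and 6 to 11 falls. The median log2 fold change (-0.006) was 0.0605 with RLE, 0.0638 with upper-quartile factors, 0.0607 with DESeq2, 0.161 with totals, 0.0755 with 2 groups, 0.169 with limma and -0.0207 to 0.0687 without 1 library. AUP1, not called (-0.03), was 0.15 with limma (adjusted p = 0.045, from there to 0.973 over the alternatives). For glabridin over melanosome, the 23 rises became 15 with totals and 14 with limma. The single fall became 4 with RLE, upper-quartile factors or DESeq2, 5 with totals or limma, and 0 to 3 without 1 library. The median (0.34) was 0.23 with upper-quartile factors, 0.16 with totals, 0.12 with limma and 0.25 at the lowest without 1 library. VCP changed sign, to -0.00134 with totals and -0.0093 with limma. For glabridin over control, the 2 falls became 4 with upper-quartile factors, 1 with 2 groups or limma, and 1 to 5 without 1 library. The median (0.33) was 0.35 with RLE and DESeq2, 0.29 with upper-quartile factors, 0.30 with limma and at most 0.35 without 1 library. Same-numbered libraries of different groups had correlations of deviations from -0.516 to 0.171, and differently numbered ones from -0.459 to 0.602. These values do not show that the numbers pair the libraries and cannot settle whether they do. With a replicate block the rises were 9, 21 and 23 in the order melanosome over control, glabridin over melanosome and glabridin over control, and the falls 11, 1 and 2. The cause of these differences was not tested. Low counts limit what can be said of DERL3 and UBXN8.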

Other observations

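Across the 36 tested members, the log2 fold change of melanosome over control had a Spearman's rho of -0.594 with transcript length and of 0.398 with GC content, beside -0.177 and 0.301 over the genes tested. For glabridin over melanosome these were -0.19 and -0.077, and for glabridin over control -0.527 and 0.181, beside -0.18 and 0.219 over the genes tested. The points are genes measured in the same libraries and are not independent replicates, and the part of length and GC content in the members' values was not tested.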
